A study of Mus musculus with 16 samples.

Results

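The Hox genes and the limb identity genes Pitx1, Tbx4 and Tbx5 were followed in tibialis anterior muscle of mice. The members were all probes other than control spots whose accession maps to a Hox gene symbol or to Pitx1, Tbx4 or Tbx5 in the RefSeq annotation of the mouse. They were chosen by name, not by their values. The 38 genes described here had 50 probes, of 17178 named genes and 41174 probes on the array. They are 35 Hox genes and the 3 limb identity genes, and Hoxc4, Hoxc6 and Hoxc11 had no probe that matched.

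The study used offspring of dams whose food was cut by 50% in the third week of gestation, a model of low birth weight, and offspring of fully fed dams. Offspring then either ate ad libitum (AL) or were calorie restricted (CR). Each of the 4 groups had 8 mice, whose muscle RNA was pooled in pairs, so that 4 arrays stood for each group: undernourished CR, control CR, undernourished AL and control AL. Strain, sex, age, litter and the length of the calorie restriction are not given in the sources used here, so pools of 1 group may share a dam, and p-values measure the spread between pools only. In bulk muscle RNA, fewer cells of a type and less RNA per cell cannot be told apart.

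Hox genes encode homeodomain transcription factors that lie in 4 clusters, Hoxa on chromosome 6, Hoxb on chromosome 11, Hoxc on chromosome 15 and Hoxd on chromosome 2. Within a cluster, low-numbered genes pattern the head and neck end of the embryo and high-numbered genes the tail end and the far parts of the limbs, and adult mesenchymal cells keep part of this positional code. Pitx1 gives the embryonic hindlimb its identity and acts upstream of Tbx4, a T-box factor of hindlimb outgrowth, while Tbx5 starts the forelimb bud. Tibialis anterior is a muscle of the lower hindlimb.

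The arrays were of 1 colour, and each probe's level is given as a relative level: the log2 of its processed signal over the 75th percentile of that array's spots. That percentile lay between 388 and 829 signal units, and 66.4% to 78.5% of spots were well above background. All 8 fast muscle markers were well above background on every array of every group. AL and CR arrays lay on different slides and were scanned on different days, so offspring diet and scan day cannot be told apart, whereas each slide held both maternal diets. The lowest signal that was well above background was 4.91 to 7.59 on CR arrays and 7.18 to 10.4 on AL arrays. Other tissues' transcripts also differed between the diets. The median relative level of 16 forebrain and glia markers ran over pools between -7.17 and -6.28 in undernourished CR, between -6.98 and -6.65 in control CR, between -2.69 and -0.28 in undernourished AL, and between -1.27 and 2.07 in control AL. Of them, Gad1, Gria1, Tbr1 and Neurod6 were well above background on 0 arrays of both CR groups. Of the 16 markers, 4 were well above background on all undernourished CR arrays and 5 on all control CR arrays. On all undernourished AL arrays it was 10, and on all control AL arrays 14. Skin markers had medians between -4.20 and -1.57 in undernourished CR, -4.09 and -3.79 in control CR, -3.43 and -1.77 in undernourished AL, and -2.99 and 1.80 in control AL.

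Most Hox genes were measurable in this hindlimb muscle, and how many differed by cluster. Of the 38 genes, 24 (63.2%) were well above background on all 16 arrays, 10 on some arrays and 4 on none, against 74.1% on all and 7.75% on none over the 17178 named genes. In the Hoxa cluster 10 of 10 genes described were well above background on every array, in Hoxb 6 of 10, in Hoxc 3 of 6 and in Hoxd 3 of 9. Hoxa2, Hoxa3, Hoxa4, Hoxa5, Hoxa6, Hoxa7, Hoxa9, Hoxa10, Hoxa11 and Hoxa13 were measured on 16 arrays, as were Hoxb2 to Hoxb7, Hoxc5, Hoxc9, Hoxc10, Hoxd4, Hoxd8 and Hoxd9. Hoxb9 and Hoxd12 were well above background on 15 arrays, Hoxd10 and Hoxd11 on 12, Hoxb8 and Hoxc8 on 8, Hoxc13 and Hoxd3 on 6, and Hoxd1 on 1. Hoxb1, Hoxb13, Hoxc12 and Hoxd13 were well above background on 0 arrays. By position, 7 of 10 genes of paralogue groups 1 to 4, 8 of 10 of groups 5 to 8, and 7 of 15 of groups 9 to 13 were measured on every array. Among the 13th paralogues, which pattern the digits and the hind end of the body, only Hoxa13 was well above background on more than 6 arrays.

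**Figure D1:**
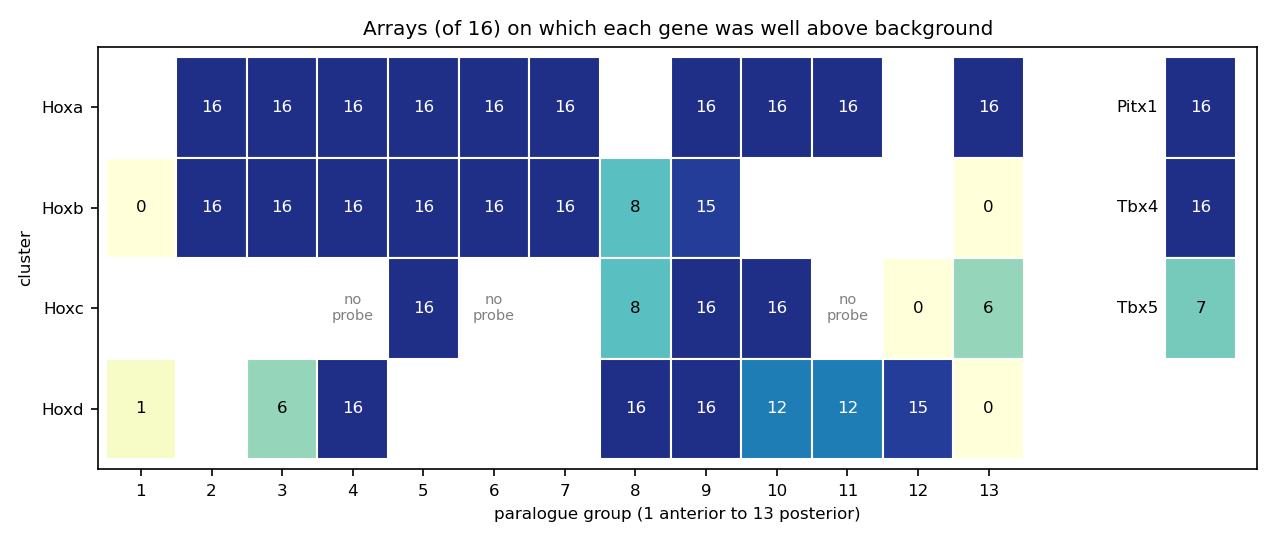
Number of arrays, of 16, on which each gene was well above background, with Hox clusters as rows and paralogue groups 1 to 13 as columns, and the limb identity genes at the right (empty cells have no gene in the mouse or are not shown, and darker cells stand for more arrays). Every Hoxa gene shown is at 16, while Hoxb1, Hoxb13, Hoxc12 and Hoxd13 are at 0.

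Detection also differed between the diets. Of the 38 genes, 30 were well above background on all 4 undernourished CR arrays, 30 on all 4 control CR arrays, 26 on all 4 undernourished AL arrays and 24 on all 4 control AL arrays. Over all spots, 74.3% to 78.5% were well above background on CR arrays and 66.4% to 74.0% on AL arrays. The background limit was lower on CR arrays, as given above, and its part in these counts was not tested. Hoxc8 was well above background on 4 arrays in each CR group and 0 in each AL group. Hoxc13 had 3 and 3 CR arrays in undernourished and control offspring, and 0 in each AL group. The relative level of Hoxc13 was not higher in CR. It averaged -6.0 and -6.08 in undernourished and control CR, and -5.98 and -5.88 in undernourished and control AL.

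A gene was tested with limma where a probe was well above background on at least 4 arrays, which 33 members and 24826 genes in all passed. The members left out were Hoxb1, Hoxb13, Hoxc12, Hoxd1 and Hoxd13. Among the tested members the SD between pools had a median of 0.31 in undernourished CR, 0.23 in control CR, 0.26 in undernourished AL and 0.37 in control AL. The widest was that of Hoxb8 in control AL, at 1.97.

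Calorie restriction in offspring of control dams was the comparison in which the most members were called. Of 33 members, 7 rose and 2 fell at an adjusted p under 0.05 (27.3%), which lay near the background of 32.3% of all 24826 genes called, 17.3% higher and 15.0% lower. The arrays did not overlap for 10 members, against 31.8% of all genes. Hoxc8, Hoxc9, Hoxc10, Hoxa5, Hoxa10, Hoxd4 and Pitx1 rose, and Hoxa3 and Tbx4 fell. Of these, Hoxc8 had passed the filter only through its CR arrays, so its call is no support for the count. By cluster, 3 of 5 tested Hoxc genes rose, Hoxc8 among them, against 17.3% of all genes. In Hoxa it was 2 of 10, in Hoxd 1 of 7 and in Hoxb 0 of 8. The members' median difference was 0.12, and that of all genes 0.0674. With quantile normalization the split was 11 higher and 0 lower, and in the authors' deposited values 14 higher and 1 lower. Of all 24826 genes, 5546 were higher and 3265 lower with quantile normalization. In the authors' values 11383 were higher and 2608 lower. After normexp background correction 0 members were called, with 251 genes higher and 273 lower in all. Adding the brain markers' level as a covariate also left 0 members called. That level separated every CR array from every AL array, so this fit parts it only poorly from diet and scan day. Control AL pools 1, 2 and 3, undernourished AL pool 3 and undernourished CR pool 2 were high in skin or liver transcripts. Without these 5 arrays control AL pool 4 alone stands for its group, so no count or p-value is given for that fit.

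In offspring of undernourished dams, 3 members were called between CR and AL. Hoxc10 rose, and Tbx4 and Hoxa3 fell, 3 of 33 (9.09%) against 20.4% of all genes, 10.5% higher and 9.85% lower. These 3 were also among the 9 called in controls, in the same direction, which makes 100% of the shorter list and 33.3% of the longer. Arrays did not overlap for 5 members, against 26.1% of all genes. The members' median difference was 0.00, and that of all genes -0.00276. Quantile normalization gave 5 higher and 1 lower, the authors' deposited values 13 higher and 1 lower, and normexp 0. Of all 24826 genes, 3390 were higher and 2039 lower with quantile normalization. In the authors' values 10322 were higher and 1528 lower, and with normexp 24 were higher and 40 lower.

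Between maternal diets no member passed the threshold. In AL offspring 0 of 33 members were called, with 0.0322% of all genes called, while 4 members (Pitx1, Hoxc8, Hoxa10 and Hoxc9) had an unadjusted p under 0.05, against 19.3% of all genes. Arrays did not overlap for Pitx1 and Hoxc8, against 5.23% of all genes, and the members' median difference was 0.13 beside 0.069 for all genes. Hoxc8 was well above background on 0 arrays of either AL group and had passed the filter only through its CR arrays. In CR offspring 0 members and 0 of 24826 genes (0.0%) were called by limma, with 0 members and 2.87% of all genes at an unadjusted p under 0.05. There the median difference was 0.01. The interaction of maternal and offspring diet called 0 members and 0.00403% of all genes, with Pitx1, Hoxb9 and Hoxc8 at an unadjusted p under 0.05, against 9.66% of all genes.

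**Figure D2:**
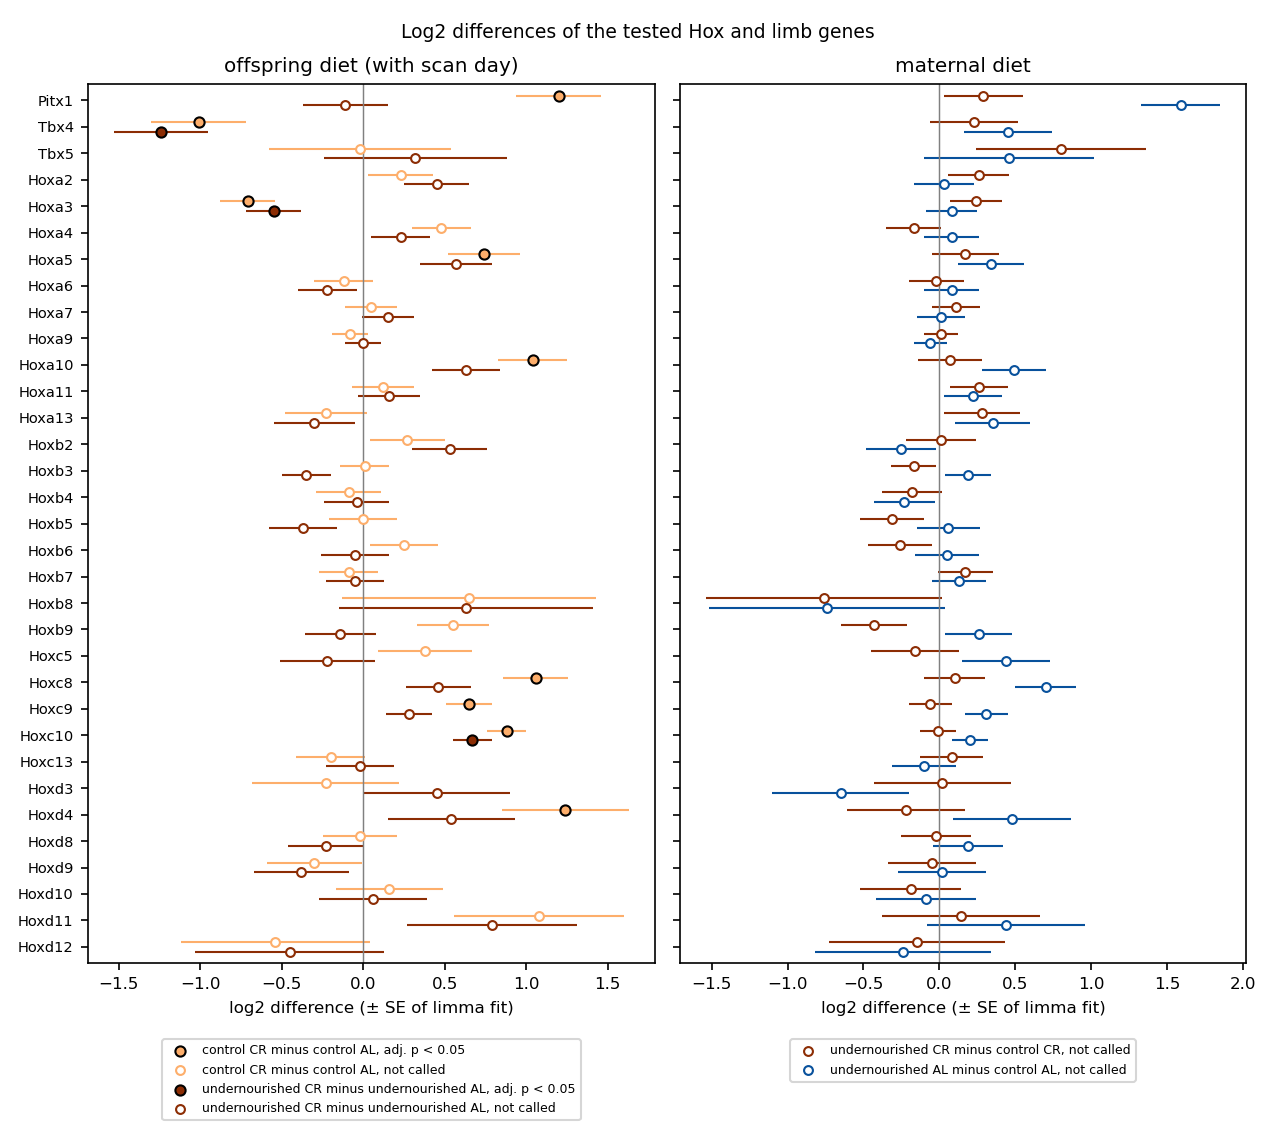
Log2 differences (± SE of the limma fit) of the 33 tested members, for offspring diet in both maternal groups (left) and for maternal diet in both offspring diets (right), with filled points for members at an adjusted p under 0.05. Of the members called at the left, only Hoxc10, Tbx4 and Hoxa3 carry filled points in both maternal groups, and the right panel has none.

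Pitx1, the homeobox gene of hindlimb identity on chromosome 13, was well above background on all 16 arrays and was lowest in control AL muscle. Its processed signal was 472, 529, 227 and 249 in undernourished CR pools and 299, 302, 280 and 246 in control CR pools. In AL pools it was 361, 314, 178 and 185 in undernourished offspring and 95.8, 50.7, 144 and 97 in controls. All undernourished AL pools lay above all control AL pools, and so did all pools of both CR groups. Pitx1 had relative levels of -0.57, -0.65, -1.25 and -1.28 in undernourished CR pools, and of -1.21, -1.24, -1.14 and -1.31 in control CR pools. In AL pools Pitx1 had -0.40, -0.58, -1.28 and -1.07 in undernourished offspring, and -2.62, -3.10, -1.87 and -2.12 in controls. The relative levels averaged -0.83 ± 0.41 in undernourished AL and -2.43 ± 0.55 in control AL (SD, n = 4 each). In the limma fit the difference was 1.59 ± 0.26 (SE, 3.02-fold), with an unadjusted p of 2.56e-05 and an adjusted p of 0.0647. The difference was 2.37 on slide 1 and 0.81 on slide 2. Of 19 alternatives, 5 called the difference between undernourished AL and control AL. With the replicate number as a block within each scan day, added after seeing the data, the adjusted p was 0.0256. With slide as a block it was 0.0102. Leaving out control AL pool 3 gave 0.0267, leaving out control AL pool 4 gave 0.00907, and with a replicate block over all arrays the adjusted p was 0.102. Quantile normalization gave 1.72 (adjusted p = 0.0473). In the other direction, the adjusted p was 0.307 without control AL pool 1 and 0.172 without control AL pool 2. It was 0.574 with the brain covariate and 0.999 with normexp. Without the 5 arrays high in skin or liver transcripts only control AL pool 4 is left in its group, so no p-value is given.

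Between the diets, Pitx1 rose by 1.20 ± 0.26 in control CR against control AL (2.30-fold, adjusted p = 0.00329), a comparison that shares the control AL pools with the maternal one. In undernourished offspring the difference of CR and AL was -0.11 (adjusted p = 0.807). The difference between those 2 diet effects, the interaction, was -1.31 ± 0.37 with an unadjusted p of 0.00332 and an adjusted p of 0.491. In CR offspring the maternal difference was 0.29 ± 0.26 (unadjusted p = 0.297). The diet call in controls was lost with normexp (0.97, adjusted p = 0.0524) and with the brain covariate (0.54, adjusted p = 0.741). Without the 5 arrays high in skin or liver transcripts the difference was 0.89, with only control AL pool 4 left in its group.

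Tbx4, on chromosome 11, moved the other way between the diets. Tbx4 had relative levels of -5.62, -4.98, -5.38 and -4.60 in undernourished CR pools, and of -5.25, -5.55, -5.02 and -5.68 in control CR pools. In AL pools Tbx4 had -4.04, -3.28, -3.84 and -4.46 in undernourished offspring, and -4.49, -5.02, -3.93 and -4.01 in controls. No CR pool reached an AL pool within undernourished offspring, and the same held within controls, although the nearest control CR and control AL pools both rounded to -5.02. Tbx4 fell by 1.24 on the log2 scale in undernourished CR against undernourished AL (SE 0.29, adjusted p = 0.00935), and by 1.01 in control CR against control AL (SE 0.29, adjusted p = 0.016). The signals were faint, at 14.3, 26.3, 13 and 24.9 in undernourished CR, 18.2, 15.2, 19 and 11.9 in control CR, 29, 48, 30.3 and 17.6 in undernourished AL and 26.3, 13.4, 34.4 and 26.2 in control AL. The maternal difference in AL pools was 0.45 ± 0.29 (adjusted p = 0.42). A further Tbx4 probe, well above background on 2 undernourished CR and 3 control CR arrays and on 0 AL arrays, has only a limit in AL pools and gives no difference between the diets. After normexp the difference in undernourished offspring was -0.32 (adjusted p = 1), and in controls 0.18 (adjusted p = 0.87), with the sign turned. The control call was also lost with quantile normalization (-0.64, adjusted p = 0.117).

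Tbx5, the forelimb T-box gene on chromosome 5, stayed near background. Its better probe was well above background on 4 undernourished CR arrays, 2 control CR arrays, 0 undernourished AL arrays and 1 control AL array. Tbx5 had relative levels of -5.97, -5.87, -5.29 and -3.54 in undernourished CR pools, and of -6.37, -7.29, -5.04 and -5.18 in control CR pools. In AL pools Tbx5 had -5.45, -5.98, -5.04 and -5.48 in undernourished offspring, and -6.42, -6.65, -5.24 and -5.49 in controls. Undernourished CR pool 4 stood highest of the 16 on this probe, and all groups overlapped. On a further Tbx5 probe that pool had -5.40, below control AL pool 3 at -5.31. By the better probe the maternal difference in CR pools was 0.80 ± 0.56 (unadjusted p = 0.175). Thus Pitx1 and Tbx4 were measured on every array of this hindlimb muscle, and Tbx5 on 7.

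**Figure D3:**
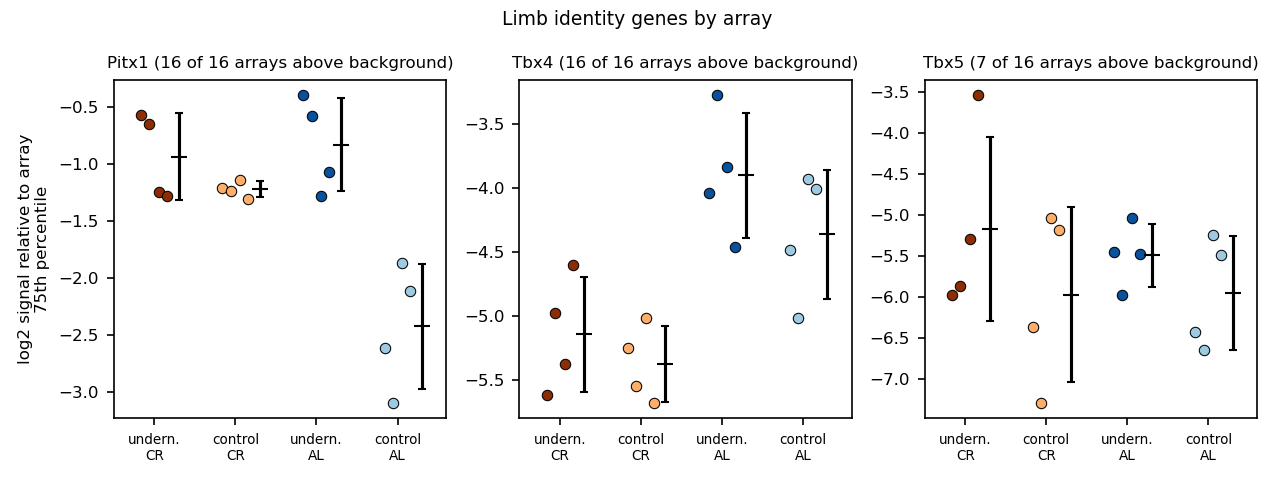
Relative level (log2 of signal over the array's 75th percentile) of Pitx1, Tbx4 and Tbx5 on each array, by group, with bars for the mean ± SD of 4 pools. The control AL pools lie lowest for Pitx1, both CR groups lie lowest on average for Tbx4, and all groups overlap for Tbx5.

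Hoxc10 had the smallest adjusted p of all members for the diet in both maternal groups. This gene with its 10th paralogues patterns the lumbar region and the upper hindlimb. Hoxc10 had relative levels of 1.52, 1.56, 1.51 and 1.77 in undernourished CR pools, and of 1.72, 1.56, 1.63 and 1.49 in control CR pools. In AL pools Hoxc10 had 0.85, 1.06, 0.87 and 0.90 in undernourished offspring, and 0.62, 0.49, 0.87 and 0.90 in controls. Every CR pool lay above every AL pool, in both maternal groups. Hoxc10 rose by 0.67 ± 0.12 in undernourished CR against undernourished AL (1.59-fold, adjusted p = 0.00142) and by 0.88 ± 0.12 in control CR against control AL (1.84-fold, adjusted p = 0.000109). A further Hoxc10 probe, well above background on 16 arrays, differed by 0.20 ± 0.12 in undernourished offspring (adjusted p = 0.259) and by 0.40 ± 0.12 in controls (adjusted p = 0.0202). In the authors' deposited table the differences were 1.13 in undernourished and 1.32 in control offspring. With normexp they were 0.54 in undernourished (adjusted p = 0.426) and 0.67 in control offspring (adjusted p = 0.127). With the brain covariate they were 0.21 in undernourished (adjusted p = 0.61) and 0.27 in control offspring (adjusted p = 0.664).

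Its neighbour Hoxc9, of the thoracic to lumbar region, was well above background on all 16 arrays. Hoxc9 had relative levels of 2.72, 2.70, 2.71 and 2.81 in undernourished CR pools, and of 2.73, 3.04, 2.73 and 2.68 in control CR pools. In AL pools Hoxc9 had 2.54, 2.37, 2.49 and 2.41 in undernourished offspring, and 1.94, 1.88, 2.22 and 2.54 in controls. The CR pools lay above the AL pools within both maternal groups. Hoxc9 rose by 0.65 ± 0.14 in control CR against control AL (1.57-fold, adjusted p = 0.00269), and its difference in undernourished offspring was 0.28 ± 0.14 (adjusted p = 0.162). The maternal difference in AL pools was 0.31 ± 0.14 (adjusted p = 0.236), and without control AL pool 4 it was called, at an adjusted p of 0.0355. With the brain covariate the diet difference in controls turned to -0.22 (adjusted p = 0.763), and the call was also lost with normexp (0.45, adjusted p = 0.565). The difference was 0.25 without the 5 arrays high in skin or liver transcripts, which leaves only control AL pool 4 in its group. Hoxc8, a gene of the thoracic region, had a signal of 22.2, 26.1, 15.7 and 12 in undernourished CR and 25.7, 14.2, 12.8 and 17.1 in control CR pools. Its AL signals, 10.8, 10.4, 8.11 and 6.62 in undernourished and 7.23, 5.43, 6.08 and 5.45 in control pools, were not well above background on any array. As only a limit is known for AL arrays, Hoxc8 was at least 1.19-fold higher in undernourished CR than in undernourished AL. By the same limit it was at least 1.42-fold higher in control CR than in control AL. These limits were not tested. The limma fit used the AL signals as read and gave an adjusted p of 0.115 in undernourished offspring and 0.00119 in controls. Hoxc8 passed the filter on dim probes only through its CR arrays, which favours a call between the diets. In the authors' deposited table the control difference was 0.15 (adjusted p = 0.222).

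On the log2 scale, Hoxc8 had relative levels of -4.98, -4.99, -5.11 and -5.66 in undernourished CR pools, and of -4.75, -5.65, -5.59 and -5.15 in control CR pools. In AL pools Hoxc8 had -5.46, -5.49, -5.74 and -5.87 in undernourished offspring, and -6.35, -6.32, -6.43 and -6.27 in controls. The AL pools of undernourished dams lay above those of control dams, and the difference of 0.70 ± 0.20 had an adjusted p of 0.155 (0.039 with slide as a block), with Hoxc8 well above background on 0 arrays of either group. Hoxc5, of the neck to chest region, was on all arrays but was called in no comparison. Hoxc5 had relative levels of -4.51, -4.57, -3.99 and -4.31 in undernourished CR pools, and of -3.96, -4.59, -3.75 and -4.42 in control CR pools. In AL pools Hoxc5 had -4.33, -4.23, -3.18 and -4.76 in undernourished offspring, and -4.52, -4.92, -4.67 and -4.14 in controls. Groups overlapped throughout for Hoxc5.

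In the Hoxa cluster, Hoxa10, a gene of the lumbar region and the upper limb, rose in control CR. Hoxa10 had relative levels of 1.01, 1.17, 1.02 and 1.25 in undernourished CR pools, and of 1.54, 1.22, 0.66 and 0.74 in control CR pools. In AL pools Hoxa10 had 0.68, 0.60, 0.24 and 0.43 in undernourished offspring, and -0.46, -0.21, 0.19 and 0.47 in controls. CR pools lay above AL pools in both maternal groups. Hoxa10 rose by 1.04 ± 0.21 in control CR against control AL (2.06-fold, adjusted p = 0.00217), and its difference in undernourished offspring was 0.63 ± 0.21 (1.54-fold, adjusted p = 0.0522). With the brain covariate the control difference was -0.03 (adjusted p = 0.986), and with normexp 0.83 (adjusted p = 0.0812). It was 0.57 without the 5 arrays high in skin or liver transcripts, where control AL keeps only pool 4. The maternal difference in AL pools was 0.49 ± 0.21 (unadjusted p = 0.0384, adjusted p = 0.23).

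Hoxa5, which acts in the neck and chest skeleton and in the lung, also rose in control CR. Hoxa5 had relative levels of -2.45, -1.70, -2.53 and -1.76 in undernourished CR pools, and of -2.40, -2.48, -2.08 and -2.13 in control CR pools. In AL pools Hoxa5 had -2.73, -2.66, -2.20 and -3.12 in undernourished offspring, and -3.18, -3.26, -2.88 and -2.75 in controls. Control CR pools all lay above control AL pools, while undernourished AL pool 3 lay within the range of undernourished CR. Hoxa5 rose by 0.74 ± 0.22 in control CR against control AL (adjusted p = 0.0201), with 0.57 ± 0.22 in undernourished offspring (adjusted p = 0.0849). The control call was lost when control AL pool 1 or 2, or control CR pool 3 or 4, was left out (adjusted p = 0.0563, 0.0606, 0.0561 and 0.0517).

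Hoxa3, which patterns the pharyngeal organs such as thymus and parathyroid, fell by its brighter probe and rose by its dimmer one. Hoxa3 had relative levels of -2.86, -3.05, -2.73 and -3.09 in undernourished CR pools, and of -2.94, -3.68, -3.08 and -2.99 in control CR pools. In AL pools Hoxa3 had -2.50, -2.58, -2.35 and -2.12 in undernourished offspring, and -2.59, -2.61, -2.32 and -2.36 in controls. On this probe all CR pools lay below all AL pools. Hoxa3 fell by 0.55 on the log2 scale in undernourished CR against undernourished AL (SE 0.17, adjusted p = 0.031) and by 0.71 in control CR against control AL (SE 0.17, adjusted p = 0.00489). Its processed signals overlapped, at 96.8, 100, 81.3 and 71 in undernourished CR, 89.9, 55.5, 73.3 and 76.5 in control CR, 84.2, 78.2, 85 and 89.3 in undernourished AL and 98, 71.3, 105 and 82 in control AL, and the groups separated after scaling to each array's 75th percentile. The other probe had -3.83, -3.77, -4.03 and -4.23 in undernourished CR, -3.87, -3.94, -3.91 and -3.96 in control CR, -4.71, -4.42, -4.58 and -4.28 in undernourished AL and -5.29, -6.59, -4.11 and -5.54 in control AL. It differed by 0.53 ± 0.35 in undernourished offspring (adjusted p = 0.293) and rose by 1.46 ± 0.35 in controls (adjusted p = 0.00468), with 2 of 4 control AL arrays well above background. Quantile normalization took the brighter probe's difference to -0.38 in undernourished (adjusted p = 0.118) and to -0.44 in control offspring (adjusted p = 0.0533). The authors' deposited table gave -0.14 in undernourished (adjusted p = 0.408) and -0.17 in control offspring (adjusted p = 0.306). The probes disagreed in sign, and the mean of both differed by 0.38 in controls (adjusted p = 0.198). In undernourished offspring the brighter probe's call was lost without undernourished AL pool 3 or 4, or without undernourished CR pool 1, 2 or 4 (adjusted p = 0.0686, 0.0896, 0.0528, 0.076 and 0.0713).

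**Figure D4:**
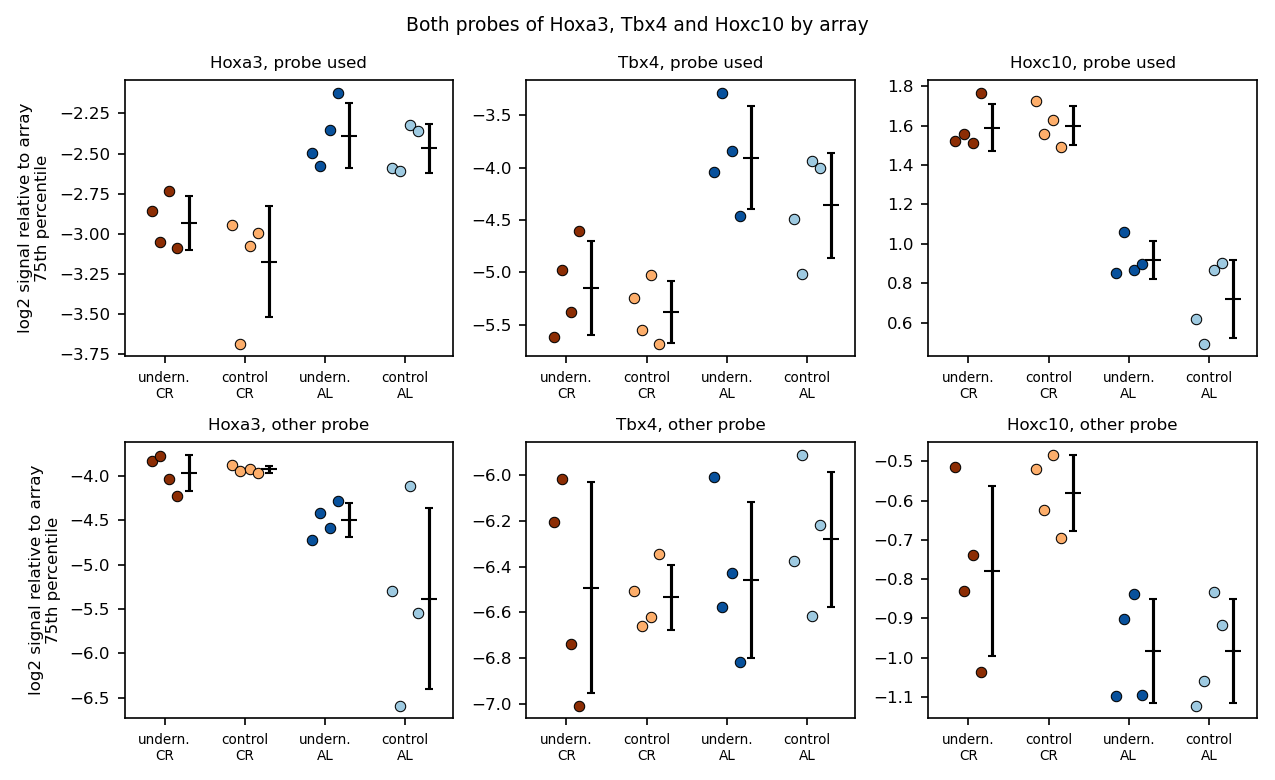
Relative level of both probes of Hoxa3, Tbx4 and Hoxc10 on each array, by group, with bars for the mean ± SD of 4 pools. For Hoxa3 the probes run in opposite directions between CR and AL, the dimmer Tbx4 probe was well above background on 0 AL arrays, so that its points there have only a limit, and for Hoxc10 control CR lies above control AL on both.

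Hoxd4, which shapes the neck vertebrae, was the called member of the Hoxd cluster. Hoxd4 had relative levels of -0.68, -1.26, -0.51 and -1.93 in undernourished CR pools, and of -0.96, -0.88, -0.64 and -1.01 in control CR pools. In AL pools Hoxd4 had -2.50, -0.69, -1.92 and -1.42 in undernourished offspring, and -2.18, -2.68, -2.36 and -1.25 in controls. Control CR pools all lay above control AL pools, while undernourished AL pools 2, 3 and 4 lay within the range of undernourished CR pools. Hoxd4 rose by 1.24 ± 0.39 in control CR against control AL (2.37-fold, adjusted p = 0.0238), and its difference in undernourished offspring was 0.54 ± 0.39 (adjusted p = 0.348). The call was lost without control AL pool 1, 2 or 3, or without control CR pool 3 (adjusted p = 0.0539, 0.0754, 0.0557 and 0.0599). With the brain covariate the difference was -0.46 (adjusted p = 0.847).

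**Figure D5:**
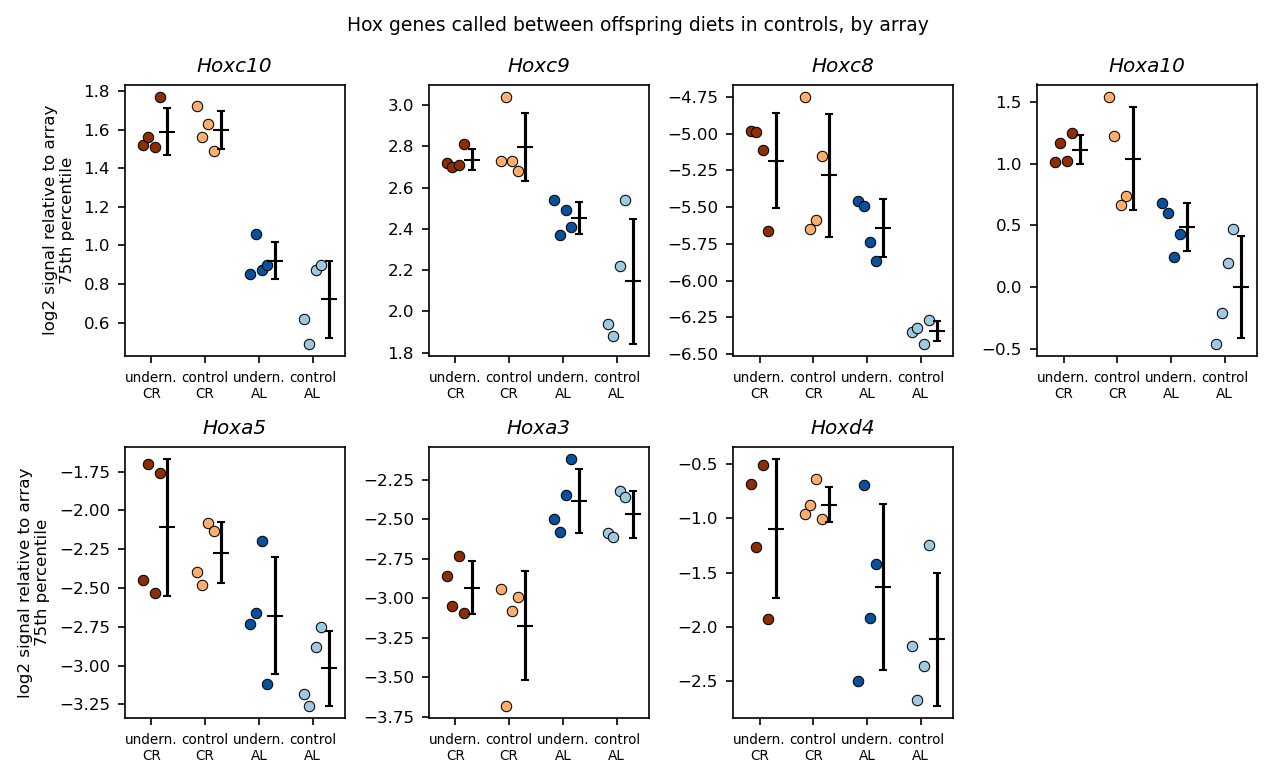
Relative level of the 7 Hox genes called between control CR and control AL, on each array, by group, with bars for the mean ± SD of 4 pools. For 6 of them the control CR pools lie above the control AL pools on average, and for Hoxa3 they lie below.

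The promoters of these members are shown because their genes moved together in control CR (Hoxa10, Hoxa5 and Hoxd4) or the other way (Tbx4). RefSeq's table, of the GRCm38.p6 build, held a promoter for 5 of the 9 called members, Hoxa3 included. The 250 bases before the start are given 5′ to 3′ on the gene's strand, with matches to TATAAA or CCAAT on either strand in capitals. Hoxa10 has 2 starts, at chr6:52240855-52241104, minus strand, and chr6:52234940-52235189, minus strand. The Hoxa5 stretch is chr6:52204588-52204837, minus strand, that of Hoxd4 chr2:74721728-74721977, plus strand, and that of Tbx4 chr11:85896515-85896764, plus strand.
Hoxa10, upstream start: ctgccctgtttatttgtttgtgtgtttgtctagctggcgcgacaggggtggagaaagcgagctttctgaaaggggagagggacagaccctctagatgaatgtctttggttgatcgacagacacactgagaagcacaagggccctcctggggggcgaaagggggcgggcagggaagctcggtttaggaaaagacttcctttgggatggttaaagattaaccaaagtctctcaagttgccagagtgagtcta
Hoxa10, downstream start: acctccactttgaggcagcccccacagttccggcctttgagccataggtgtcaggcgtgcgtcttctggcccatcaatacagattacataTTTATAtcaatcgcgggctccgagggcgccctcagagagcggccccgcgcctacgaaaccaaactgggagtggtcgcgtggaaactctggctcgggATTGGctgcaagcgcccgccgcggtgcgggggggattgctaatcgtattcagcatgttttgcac
Hoxa5: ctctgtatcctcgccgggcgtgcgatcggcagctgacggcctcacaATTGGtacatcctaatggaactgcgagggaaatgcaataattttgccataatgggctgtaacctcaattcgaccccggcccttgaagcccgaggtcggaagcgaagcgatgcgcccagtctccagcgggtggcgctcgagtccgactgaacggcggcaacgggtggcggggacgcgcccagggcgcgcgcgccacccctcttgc
Hoxd4: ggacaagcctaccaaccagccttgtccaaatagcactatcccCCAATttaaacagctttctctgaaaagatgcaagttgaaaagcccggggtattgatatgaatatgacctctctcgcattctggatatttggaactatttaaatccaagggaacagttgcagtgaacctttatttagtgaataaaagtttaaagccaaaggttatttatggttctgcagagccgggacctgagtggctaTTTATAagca
Tbx4: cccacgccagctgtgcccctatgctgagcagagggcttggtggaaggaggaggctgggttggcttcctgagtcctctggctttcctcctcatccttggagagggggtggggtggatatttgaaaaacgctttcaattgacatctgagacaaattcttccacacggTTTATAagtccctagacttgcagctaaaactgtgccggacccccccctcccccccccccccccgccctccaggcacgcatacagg
They differ in base composition: Hoxa5 has 28 CG pairs and 63.6% G and C, the downstream Hoxa10 start 20 and 59.2%, the upstream one 7 and 51.6%, Tbx4 6 and 58.4%, and Hoxd4 3 and 40.4%, beside a median of 6 CG pairs over all 32851 promoters. The Pbx and Hox composite motif TGATNNAT and the E-box CACGTG matched none of these 5 windows. TATAAA was found in the downstream Hoxa10, the Hoxd4 and the Tbx4 windows, and CCAAT in the downstream Hoxa10, the Hoxa5 and the Hoxd4 windows, with no overlap between motifs. Over all promoters, TGATNNAT was in 7.68%, TATAAA in 12.4%, CCAAT in 33.8% and CACGTG in 6.02%. Of the 24 promoters of 22 members, 4 held TGATNNAT, 5 TATAAA, 14 CCAAT and 4 CACGTG.

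The other Hoxa genes that were measured on all arrays were called in no comparison. Hoxa2 patterns the hindbrain and the pharyngeal arches. Hoxa2 had relative levels of -4.27, -3.29, -3.88 and -3.58 in undernourished CR pools, and of -3.87, -4.04, -4.05 and -4.10 in control CR pools. In AL pools Hoxa2 had -4.32, -4.22, -4.27 and -4.03 in undernourished offspring, and -4.25, -4.68, -3.78 and -4.27 in controls. Its undernourished CR pool 2 was the highest, and groups overlapped. Hoxa4 acts in the neck region. Hoxa4 had relative levels of -2.76, -2.88, -2.63 and -2.78 in undernourished CR pools, and of -2.69, -2.70, -2.63 and -2.33 in control CR pools. In AL pools Hoxa4 had -2.50, -2.95, -3.41 and -3.09 in undernourished offspring, and -2.87, -3.49, -2.95 and -2.96 in controls. Control CR pools lay above control AL pools, and the difference of 0.48 ± 0.18 had an adjusted p of 0.0543. Hoxa6 belongs to the chest region. Hoxa6 had relative levels of -3.13, -3.08, -3.29 and -3.33 in undernourished CR pools, and of -3.09, -2.93, -3.28 and -3.44 in control CR pools. In AL pools Hoxa6 had -2.98, -3.18, -2.93 and -2.86 in undernourished offspring, and -3.35, -3.38, -3.04 and -2.50 in controls. All groups overlapped.

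Farther along the same cluster, no other gene was called either. Hoxa7 is a gene of the thoracic region. Hoxa7 had relative levels of 2.11, 2.57, 2.34 and 2.42 in undernourished CR pools, and of 2.26, 2.39, 2.0 and 2.34 in control CR pools. In AL pools Hoxa7 had 2.44, 2.32, 2.22 and 1.87 in undernourished offspring, and 2.13, 1.92, 2.49 and 2.26 in controls. Its processed signal was between 1410 and 4910, and its groups overlapped. Hoxa9 acts in blood stem cells as well as in the trunk. Hoxa9 had relative levels of -0.67, -0.76, -0.68 and -0.51 in undernourished CR pools, and of -0.63, -0.56, -0.78 and -0.69 in control CR pools. In AL pools Hoxa9 had -0.59, -0.62, -0.78 and -0.61 in undernourished offspring, and -0.59, -0.83, -0.49 and -0.43 in controls. Its relative level varied by at most 0.18 (SD) within a group. Hoxa11 patterns the lower leg and forearm. Hoxa11 had relative levels of 0.92, 0.55, 1.24 and 1.04 in undernourished CR pools, and of 0.40, 1.09, 0.45 and 0.74 in control CR pools. In AL pools Hoxa11 had 1.10, 0.69, 0.53 and 0.76 in undernourished offspring, and 0.26, 0.43, 0.77 and 0.73 in controls. No group stood apart. Hoxa13 patterns the digits. Hoxa13 had relative levels of -3.31, -3.40, -3.22 and -2.23 in undernourished CR pools, and of -3.20, -3.07, -3.68 and -3.32 in control CR pools. In AL pools Hoxa13 had -2.60, -2.82, -2.93 and -2.61 in undernourished offspring, and -3.22, -3.58, -2.76 and -2.82 in controls. On the probe used, undernourished CR pool 4 stood above the other pools, and groups overlapped. A further Hoxa13 probe had -2.885 in that pool, below undernourished CR pool 3 at -2.74.

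In the Hoxb cluster 0 of 8 tested genes were called. Hoxb2 acts in the hindbrain. Hoxb2 had relative levels of -3.16, -3.02, -3.40 and -2.80 in undernourished CR pools, and of -3.29, -3.43, -3.09 and -2.63 in control CR pools. In AL pools Hoxb2 had -3.87, -3.88, -3.80 and -2.94 in undernourished offspring, and -3.69, -3.38, -3.26 and -3.18 in controls. Its undernourished AL pool 4 was above the other pools of that group. Hoxb3 acts in the hindbrain and throat region. Hoxb3 had relative levels of -2.95, -3.46, -2.87 and -3.52 in undernourished CR pools, and of -2.82, -2.98, -3.11 and -3.23 in control CR pools. In AL pools Hoxb3 had -2.87, -2.78, -2.93 and -2.84 in undernourished offspring, and -3.08, -3.05, -2.92 and -3.12 in controls. Undernourished AL pools lay closest together, and groups overlapped. Hoxb4 acts in the neck region and in blood stem cells. Hoxb4 had relative levels of -4.23, -4.45, -4.33 and -4.79 in undernourished CR pools, and of -4.36, -4.57, -3.83 and -4.33 in control CR pools. In AL pools Hoxb4 had -4.66, -4.25, -4.20 and -4.52 in undernourished offspring, and -4.31, -4.51, -4.17 and -3.72 in controls. Its groups overlapped.

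Among the middle Hoxb genes, the CR pools of Hoxb5 did not overlap between maternal diets. Hoxb5 helps to set the level of the shoulder girdle. Hoxb5 had relative levels of -3.48, -3.12, -3.08 and -3.37 in undernourished CR pools, and of -2.92, -3.05, -2.78 and -3.06 in control CR pools. In AL pools Hoxb5 had -2.77, -3.17, -3.17 and -2.46 in undernourished offspring, and -3.22, -3.47, -2.49 and -2.63 in controls. All undernourished CR pools lay below all control CR pools, and the difference of -0.31 ± 0.21 had an unadjusted p of 0.172 (adjusted p = 1). Hoxb6 belongs to the chest region. Hoxb6 had relative levels of 0.88, 0.63, 1.28 and 0.28 in undernourished CR pools, and of 1.34, 0.81, 1.06 and 0.88 in control CR pools. In AL pools Hoxb6 had 0.50, 0.64, 1.18 and 0.95 in undernourished offspring, and 0.71, 1.06, 0.62 and 0.69 in controls. Its undernourished CR pool 4 was the lowest of the CR pools, and groups overlapped. Hoxb7 belongs to the chest region too. Hoxb7 had relative levels of -1.24, -0.63, -0.59 and -0.96 in undernourished CR pools, and of -0.87, -0.98, -1.23 and -1.01 in control CR pools. In AL pools Hoxb7 had -0.73, -0.89, -0.88 and -0.73 in undernourished offspring, and -1.23, -1.25, -0.70 and -0.56 in controls. No group stood apart.

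Hoxb9, which with its 9th paralogues patterns the ribs, had the smallest p between maternal diets in CR offspring. Hoxb9 had relative levels of -5.09, -5.15, -4.67 and -4.73 in undernourished CR pools, and of -4.58, -4.46, -4.40 and -4.48 in control CR pools. In AL pools Hoxb9 had -4.90, -5.10, -4.63 and -4.45 in undernourished offspring, and -5.22, -5.67, -4.49 and -4.75 in controls. All undernourished CR pools lay below all control CR pools, 1 of the 2 members with no overlap there, against 2.74% of all genes. The difference was -0.43 ± 0.22 (unadjusted p = 0.0705, adjusted p = 1), with -0.60 on slide 3 and -0.26 on slide 4. In AL offspring it was 0.26 ± 0.22, and the interaction was -0.69 ± 0.31 (unadjusted p = 0.0428, adjusted p = 0.511). After Hoxb9, the smallest p-values in CR offspring were those of Hoxa3 (0.24 ± 0.17, unadjusted p = 0.169) and Hoxb5. A further Hoxb9 probe was well above background on all 8 CR arrays and on 0 AL arrays, so that it passed the filter only through CR arrays and has only a limit in AL pools. The limma fit on AL signals as read gave an adjusted p of 0.00122 between the diets in controls, and did not test the limit. By that limit the probe was at least 2.03-fold higher in control CR than in control AL. Between undernourished CR and control CR, where both groups were measured, it differed by -0.75 ± 0.27 (unadjusted p = 0.0136, adjusted p = 1).

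Of the remaining Hoxd genes, 2 were measured on all arrays and called in no comparison. Hoxd8 belongs to the trunk region. Hoxd8 had relative levels of -2.0, -1.67, -2.41 and -2.14 in undernourished CR pools, and of -1.91, -1.92, -2.49 and -1.81 in control CR pools. In AL pools Hoxd8 had -2.08, -1.62, -1.73 and -1.85 in undernourished offspring, and -1.80, -2.69, -1.64 and -1.91 in controls. Groups overlapped for Hoxd8. Hoxd9 acts in the trunk and the upper limb. Hoxd9 had relative levels of -3.45, -3.33, -3.57 and -3.75 in undernourished CR pools, and of -3.66, -3.32, -3.98 and -2.94 in control CR pools. In AL pools Hoxd9 had -3.77, -2.87, -2.68 and -3.28 in undernourished offspring, and -2.68, -3.78, -2.73 and -3.50 in controls. Groups overlapped here as well. The dimmer tested members, Hoxb8, Hoxc13, Hoxd3, Hoxd10, Hoxd11 and Hoxd12, were called in no comparison. Hoxd11, which patterns the lower leg and forearm with Hoxa11, was well above background on all 8 CR arrays and on 2 of 4 arrays of each AL group. Its difference was 0.79 ± 0.52 in undernourished offspring (adjusted p = 0.304) and 1.08 ± 0.52 in controls (adjusted p = 0.126).

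Hox proteins bind DNA with TALE homeodomain cofactors, the Pbx, Meis and Pknox families. Of 9 such genes, all tested, 44.4% were called in undernourished offspring, against 20.4% of all genes, and 66.7% in controls, against 32.3% of all genes. Among them 3 rose and 1 fell in undernourished CR against undernourished AL, with a median difference of 0.40, and 3 rose and 3 fell in control CR against control AL, with a median of 0.23 (all genes had medians of -0.00276 in undernourished offspring and 0.0674 in controls). Pknox2 rose by 0.92 ± 0.13 in undernourished offspring (adjusted p = 0.000412) and by 0.91 ± 0.13 in controls (adjusted p = 0.000208). Meis1 rose by 0.77 ± 0.20 in undernourished (adjusted p = 0.017) and by 0.96 ± 0.20 in control offspring (adjusted p = 0.00277). Pbx3 rose by 0.40 ± 0.13 in undernourished offspring (adjusted p = 0.0359). Meis2, which is also expressed in forebrain, fell by 1.79 on the log2 scale in undernourished offspring (adjusted p = 0.0412) and by 3.59 in controls (adjusted p = 0.000436). In controls it moved with 14 of 16 forebrain and glia markers that fell (median -5.59), and in undernourished offspring with 10 of 16 (median -3.39). Of these markers, 1 rose in controls and 1 in undernourished offspring.

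Among other limb patterning genes, 22 of 28 on the array were tested. In undernourished offspring 1 rose and 1 fell with CR, and in controls 3 rose and 3 fell, with medians of 0.00 and 0.10. These are 9.09% of the list in undernourished offspring, against 20.4% of all genes, and 27.3% in controls, against 32.3% of all genes. Meox2, a homeobox gene of limb muscle, rose by 0.67 ± 0.16 in undernourished (adjusted p = 0.00947) and by 1.06 ± 0.16 in control offspring (adjusted p = 0.000274). Dlx5, of the limb bud's ectoderm and of bone, fell by 1.49 on the log2 scale in undernourished offspring (adjusted p = 0.00236). In controls Lhx2, a LIM homeobox gene of the limb bud that is also expressed in forebrain, fell by 3.15 (adjusted p = 0.000751), and Tbx3 rose by 0.80 ± 0.21 (adjusted p = 0.00896). Skin markers fell in controls too, 9 of 10 (median -3.76), and 5 of 8 fibroblast markers (median -0.73), while in undernourished offspring 0 of 10 skin and 2 of 8 fibroblast markers fell.

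Genes that set Hox activity in the embryo include Polycomb and Trithorax chromatin proteins, Cdx factors and retinoic acid receptors. Those tested were called about as often as all genes in controls, while Cdx1, Cdx2, Cdx4 and Kmt2a were not tested. Of 18 tested, 5 rose and 0 fell in undernourished CR against undernourished AL, with a median of 0.12. In controls 6 rose and 0 fell, with a median of 0.22. These are 27.8% of the list in undernourished offspring, against 20.4% of all genes, and 33.3% in controls, against 32.3% of all genes. Of the 6 in controls, Rara was well above background on 4 arrays of each CR group, 1 control AL array and 0 undernourished AL arrays. It had passed the filter only through its CR arrays, so its call is no support for the count. Bmi1, a Polycomb protein, rose by 1.01 ± 0.13 in undernourished (adjusted p = 0.000215) and by 0.84 ± 0.13 in control offspring (adjusted p = 0.000324). Kdm6b, which removes the Polycomb methyl mark from histone H3, rose by 0.76 ± 0.17 in undernourished (adjusted p = 0.00735) and by 0.93 ± 0.17 in control offspring (adjusted p = 0.0011). Rarb, a retinoic acid receptor, rose by 1.13 ± 0.20 in undernourished (adjusted p = 0.00158) and by 1.06 ± 0.20 in control offspring (adjusted p = 0.00119). In each of the 3 lists 0 genes were called between maternal diets, in AL or in CR offspring.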

How the data were processed

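Muscle RNA pools were labelled with Cy3 and hybridised to 1-colour Agilent mouse arrays, and images were read with Agilent Feature Extraction 10.5.1.1, per the submitters' processing notes. The deposited scanner files give processed, median and background intensity for each spot and flags for outliers and for signals well above background. The authors' deposited table holds log2 values centred for each probe. Its scale against the scanner values had a median slope of 0.816 and a correlation of 0.957, and its normalization stays unknown, so it served only as an alternative.

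The members and lists were chosen with earlier results of these data known, and 1 gene that the rule takes in is not reported here. Processed signals were divided by each array's 75th percentile, taken as log2 and averaged over a probe's spots, without control and outlier spots. No spot was saturated, and no member's spot was an outlier. Genes were named through RefSeq accessions, and 24844 of 41174 probes matched 1 symbol. A gene was represented by its brightest probe among those well above background on at least 4 arrays. No probe's level was compared with another probe's level. limma 3.58.1 in R 4.3.3 fitted 4 group means to all 16 arrays, with Benjamini-Hochberg adjustment over 24826 genes and a threshold of 0.05, and was tested on simulated data. The number of arrays limits the precision. Bounds for Hoxc8 and a Hoxb9 probe set the bright group's mean against the higher of each AL array's lowest signal well above background and the probe's own.

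All members are named with their number of arrays. Values for each array are given for called members, for the 3 smallest p-values where fewer than 3 were called, for the limb identity genes and for members on all 16 arrays. From each list up to 3 called genes are named in each comparison.

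Alternatives were normexp (offset 50), quantile normalization, the authors' table, other filters, the mean of a gene's probes, blocks for replicate number or slide, a brain marker covariate, and leaving out arrays. Normexp used the median spot signal, since the files do not give the mean signal that was planned. Same-numbered AL pools of both maternal diets shared a slide and deviated together from their group means (r = 0.393, 0.123, 0.113 and 0.44), so the number was taken as a pairing there. Differently numbered AL pools of both maternal diets on the same slide had r of 0.243, 0.136, -0.0248 and 0.249. These ranges overlap, so r does not part a pairing by number from a shared slide. In same-numbered CR pools r was 0.228, 0.107, 0.0174 and 0.0584, and no pairing was assumed. The replicate block within each scan day was added after seeing the data.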

Additional observations from a re-analysis of the deposited data

Results flagged for a closer look

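In 7 of 108 sets of 4 pools checked, 1 pool stood apart from the other pools of its group, by a gap that was large for the range of the group. About 1 in 20 sets is flagged by chance. Hoxa13 was high in undernourished CR pool 4, at a relative level of -2.23. On a further Hoxa13 probe, well above background on 16 arrays, that pool had -2.885, within the range of the group's other pools (-2.94, -3.27 and -2.74). Hoxc9 was high in undernourished CR pool 4, at 2.81, and in control CR pool 2, at 3.04. Hoxd8 was low in control CR pool 3, at -2.49. Hoxa9 was low in undernourished AL pool 3, at -0.78, and Hoxb2 was high in undernourished AL pool 4, at -2.94. Hoxa4 was low in control AL pool 2, at -3.49. On a further Hoxa4 probe, well above background on 3 control AL arrays, control AL pool 1 was lowest, at -5.39, with pool 2 at -5.31.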

How the results depend on the processing

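Offspring diet and scan day cannot be told apart, 4 pools of 2 mice stood for each group, and faint signals limit Hoxc8, Tbx4 and Tbx5. Between control CR and control AL, 9 members were called (8027 genes in all). In that comparison 0 were called after normexp (524 genes) and 0 with the brain covariate (1098 genes). There were 15 in the authors' table (13991 genes), and 7 to 11 when 1 pool was left out. Without the 5 arrays high in skin or liver RNA only control AL pool 4 is left in its group, so no count is given. Between undernourished CR and undernourished AL, 3 were called, with 0 after normexp (64 genes, against 5054), 6 with quantile normalization, 14 in the authors' table (11850 genes), 6 without the filter on dim probes (10080 genes), and 2 to 4 when 1 pool was left out. Between undernourished AL and control AL, 0 were called (8 genes in all). It was 1 under quantile normalization (16 genes) and 1 with the replicate block within each scan day (1398 genes). With slide as a block 2 were called (1968 genes), Pitx1 and Hoxc8. Of these, Hoxc8 was well above background on 0 arrays of either AL group. Leaving out 1 pool gave 0 to 2 (2317 genes without control AL pool 4). The replicate block over all arrays, where the diets' numbers share no slide, gave 0 between undernourished AL and control AL, 10 between control CR and control AL, and 4 between undernourished CR and undernourished AL. It changed no other call between maternal diets, where the block within each scan day called Pitx1 in AL pools. In undernourished CR against control CR every alternative gave 0 members. For the interaction, every alternative that kept more than 1 pool in each group gave 0 members. The sign turned for Hoxa3 between undernourished CR and control CR after normexp (-0.04). Between control CR and control AL it turned with the brain covariate for Hoxa10 (-0.03), Hoxc9 (-0.22) and Hoxd4 (-0.46), with the mean of all probes for Hoxa3 (0.38), and after normexp for Tbx4 (0.18). The median of all genes in control CR against control AL moved from 0.0674 to 0.262 with normexp, 0.293 in the authors' table, -0.238 with the brain covariate and -0.109 without the skin or liver arrays. The cause of these changes was not tested.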
